A study of Mus musculus with 6 samples.

Results

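Stromal and mural cells lie against the endothelium of the bone marrow, and 10 genes that mark them were read in sorted marrow endothelial cells of diabetic and nondiabetic mice. The genes were Lepr, Pdgfra, Adipoq and Runx2, which mark mesenchymal stromal cells, Cspg4, Acta2, Tagln and Myh11, which mark pericytes and smooth muscle, and Pdgfrb and Mcam, which mark more than 1 of these cell types. They were chosen by symbol from a list of markers, and each took the probe set that names it alone. Of the 10 genes, 9 had such a probe set, 1 each, among the 22180 genes named this way in the series; Runx2 was not analysed here. Of the 9 measured genes, 6 had a mean over all arrays above 5.07 on the log2 scale, the limit under which a gene was treated as dim and left out of the test, and 13308 genes in all passed that limit.

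The study profiled marrow endothelium by microarray in 3 arrays of diabetic mice, made diabetic by feeding on a high fat diet, and 3 arrays of nondiabetic mice. All 6 samples were of male C57BL/6J mice, and each held 5000 endothelial cells sorted by FACS. The labels of every sample give the same diet, 60 kcal% fat for 4 months, so the diet of the nondiabetic mice is not settled by them. They do not name the gate of the sort or say whether arrays came from separate or pooled animals, and any p-value therefore reflects the spread among these 6 arrays alone, part of which may be technical.

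Most of the lining of marrow vessels is sinusoidal endothelium, and reticular stromal cells that carry the leptin receptor wrap these sinusoids and supply blood stem cells with the chemokine Cxcl12 and with stem cell factor. Arterioles are wrapped instead by smooth muscle cells and by pericytes that carry the proteoglycan NG2, the product of Cspg4. Endothelial cells recruit mural cells by releasing PDGF-B, which binds the receptor encoded by Pdgfrb. A sort of endothelial cells can carry along attached mural or stromal cells or their RNA, and some of these markers are also made by endothelium. In bulk RNA of this kind, fewer cells of a type and less RNA per cell cannot be told apart.

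The series holds no call of a probe set above background, so a value under the limit of 5.07 may show background alone. A value above it may be background too, since the limit is only the 40th percentile of the gene means. Foxd3, Sox9 and Tnnc2, from lists of cells that a marrow sort should hold little of, had means of 6.05, 6.40 and 6.54. Pdgfrb, Cspg4 and Tagln had means of 5.62, 6.11 and 6.23, so they may lie near background as well. Array medians lay between 5.21 and 5.28 on the log2 scale, and the small number of arrays limits the precision. Markers of the labelled cell type were present: 27 of 27 measured genes of a general endothelial list lay above the limit on every array. That list averaged 9.35, 8.69 and 8.71 in diabetic arrays against 9.02, 9.18 and 8.75 in nondiabetic arrays, so diabetic replicate 1 stood highest of the 6. Of the stromal and mural markers, none passed the test across all genes for a difference between the groups.

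The 3 measured markers of stromal cells were dim. Lepr, the leptin receptor, had log2 values of 4.20, 3.88 and 4.14 in diabetic arrays against 4.19, 3.91 and 3.81 in nondiabetic arrays. Pdgfra, a receptor for platelet-derived growth factors on mesenchymal stromal cells, had 3.67, 4.05 and 3.93 in diabetic arrays against 3.64, 3.95 and 3.77 in nondiabetic arrays. Both lay under the limit on all 6 arrays and the groups overlapped, so each has only a bound and no difference is given. Adipoq encodes adiponectin, a hormone of fat cells that marrow stromal precursors of the fat lineage also transcribe. It had 4.24, 4.77 and 4.48 in diabetic arrays against 5.24, 4.45 and 4.17 in nondiabetic arrays, and nondiabetic replicate 1 was the only array above the limit. The groups overlapped here too, and since values this low may be background, these 3 genes were not compared between the groups outside that median.

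**Figure D1:**
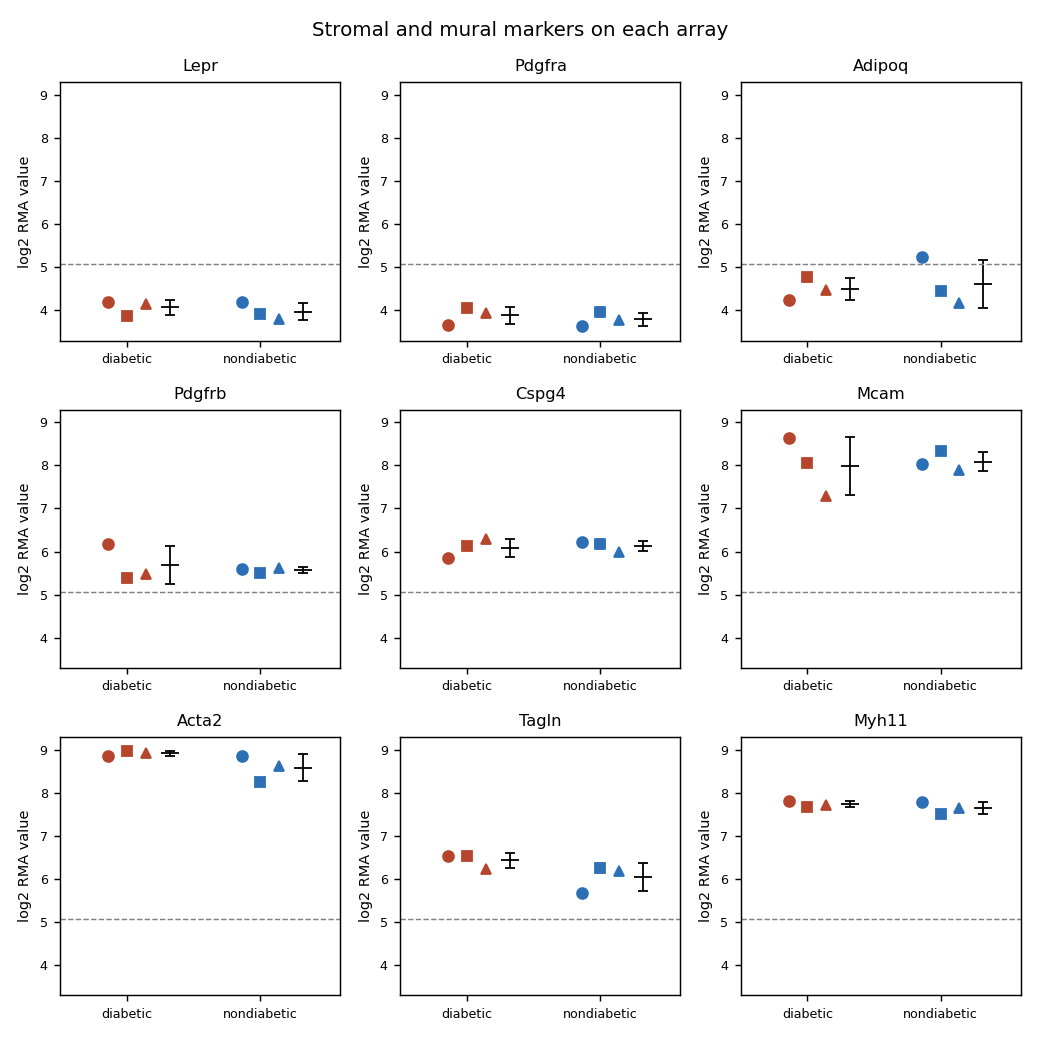
Log2 RMA values of the 9 measured markers on each array, 3 diabetic arrays left of 3 nondiabetic arrays, with circles, squares and triangles for replicates 1, 2 and 3. The dashed line is the limit of 5.07 for dim genes, and the bars give the mean and SD. Lepr and Pdgfra lie under the line on every array, and the groups overlap in every panel.

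The contractile genes were measured above the limit on all 6 arrays, and 2 of them had the largest differences of the 6 tested markers. Acta2, smooth muscle alpha actin, had log2 values of 8.85, 8.97 and 8.91 in diabetic arrays against 8.86, 8.24 and 8.63 in nondiabetic arrays. The diabetic values lay close together and the nondiabetic values were spread wider, and nondiabetic replicate 1 reached the level of the lowest diabetic array. The means were 8.91 ± 0.06 in diabetic and 8.57 ± 0.31 in nondiabetic cells (SD, n = 3 each). They differed by 0.34 (SE 0.19, 95% interval -0.09 to 0.77). Nondiabetic replicate 2 carried much of it, since the difference was 0.17 without that array.

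Tagln encodes transgelin, an actin-binding protein of smooth muscle. Its log2 values were 6.53, 6.52 and 6.23 in diabetic arrays against 5.67, 6.25 and 6.18 in nondiabetic arrays. The lowest diabetic array lay just under the highest nondiabetic one, so the groups overlapped. The means of 6.42 ± 0.17 in diabetic and 6.04 ± 0.32 in nondiabetic cells (SD, n = 3 each) differed by 0.39 (SE 0.20, 95% interval -0.07 to 0.85). Without nondiabetic replicate 1, the lowest array, the difference was 0.21. The arrays that set the 2 differences were not the same, since nondiabetic replicate 1 was the highest of its group for Acta2 and the lowest for Tagln.

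Myh11, the smooth muscle myosin heavy chain, is the most restricted of these contractile genes. It had log2 values of 7.80, 7.67 and 7.71 in diabetic arrays against 7.79, 7.51 and 7.65 in nondiabetic arrays. It varied least among the tested markers, over a range of 0.29 across all 6 arrays, and its difference was 0.08 (SE 0.15, 95% interval -0.26 to 0.42).

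The promoter of Acta2 is shown because Acta2 had 1 of the 2 largest differences and the genes of its known activator, serum response factor, were read as a list. The RefSeq promoter table, build GRCm38.p6, held entries for 7 of the 10 genes and none for Pdgfrb, Tagln and Myh11. The stretch holds the 250 bases before the start of Acta2, chr19:34255374-34255623 on the minus strand. Capitals mark CArG-like boxes, the kind of element that serum response factor binds.
Acta2: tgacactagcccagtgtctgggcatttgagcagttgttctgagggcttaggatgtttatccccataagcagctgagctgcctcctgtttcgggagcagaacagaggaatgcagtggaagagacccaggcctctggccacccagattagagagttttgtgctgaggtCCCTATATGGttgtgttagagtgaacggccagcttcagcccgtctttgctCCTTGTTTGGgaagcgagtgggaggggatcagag
A box was counted where CC and GG flanked 6 bases of which at least 5 were A or T, a pattern that reads the same on both strands. The Acta2 stretch held 2, CCCTATATGG starting at -84 and CCTTGTTTGG starting at -34 from the start, and 0 with all 6 inner bases A or T. Among 32851 promoter stretches of this length, 8.59% held a CArG-like box and 1.47% held one with all inner bases A or T. The stretches of Lepr, Pdgfra, Cspg4, Mcam, Adipoq and Runx2 held 0 CArG-like boxes. A match is a description of letters and says nothing of binding in these cells.

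The list of serum response factor genes, which also holds the factor itself and coactivators such as Myocd, lay in both directions. Of 22 tested genes of this list, 12 had higher and 10 lower means in diabetic cells, 0 passed the adjusted test, and the median difference was 0.03 on the log2 scale, against 0.02 over all tested genes. Srf itself, the factor, stood at 7.29 ± 0.37 in diabetic and 6.86 ± 0.31 in nondiabetic cells (SD, n = 3 each), with a difference of 0.43 (SE 0.24). Actn1, the actin crosslinker alpha-actinin, differed by 0.33 (SE 0.19), and cytoplasmic gamma actin (Actg1), the brightest of the list, by -0.05. The groups overlapped for all 3.

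The smooth muscle list beyond the 10 markers was split evenly too, though it shares genes such as Myocd and Tpm1 with the list before. Of 18 tested members, 9 had higher and 9 lower means in diabetic cells, 0 passed, and the median difference was -0.01. Calponin (Cnn1), a late contractile gene, was dim, with log2 values of 4.23, 4.67 and 5.22 in diabetic arrays against 4.15, 4.52 and 3.95 in nondiabetic arrays. Lmod1, a nucleator of smooth muscle actin, had 6.21, 6.03 and 6.47 in diabetic arrays against 6.03, 6.39 and 5.75 in nondiabetic arrays. Myocd, the coactivator that drives contractile genes through serum response factor, had 5.68, 5.80 and 5.77 in diabetic arrays against 5.70, 6.05 and 5.72 in nondiabetic arrays. These 3 genes, named after their values were seen, overlapped between the groups. The 2 members with the smallest p-values both had lower means in diabetic cells, Pcp4l1 by a difference of -0.76 (SE 0.18) and the intermediate filament gene Des by -0.30 (SE 0.24). The groups overlapped for Des and lay apart for Pcp4l1, as they did in that direction for 2.67% of all tested genes. Cald1, the smooth muscle list's member with the highest mean, differed by -0.16 (SE 0.19), with overlap.

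The receptors and surface proteins of mural cells did not pass the test either, and their signs changed when single arrays were left out. Pdgfrb, the receptor for PDGF-B on pericytes and stromal cells, had log2 values of 6.18, 5.38 and 5.47 in diabetic arrays against 5.58, 5.49 and 5.62 in nondiabetic arrays. Diabetic replicate 1 stood above the other 5 arrays, which lay within 5.38 and 5.62. The difference was 0.11 (SE 0.23, 95% interval -0.41 to 0.63), and it was -0.14 without that array. The same array had the highest mean of the general endothelial list, 9.35. With the mean of that list per array as a covariate the Pdgfrb difference was 0.17 and did not pass (limma adjusted p = 0.972).

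Cspg4 encodes NG2, the surface proteoglycan of arteriolar pericytes. It had log2 values of 5.86, 6.12 and 6.28 in diabetic arrays against 6.22, 6.17 and 6.00 in nondiabetic arrays. Diabetic replicates 1 and 3 were the lowest and the highest of all 6 arrays, so the whole nondiabetic range fell inside the diabetic one. The difference was -0.04 (SE 0.17, 95% interval -0.43 to 0.35).

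Mcam, or CD146, is an adhesion molecule of pericytes that endothelial cells carry too. It had log2 values of 8.63, 8.05 and 7.29 in diabetic arrays against 8.04, 8.34 and 7.90 in nondiabetic arrays. The diabetic arrays spanned the whole range, with replicate 1 highest and replicate 3 lowest, and Mcam was the most variable marker, with a range of 1.34 across the 6 arrays. The means were 7.99 ± 0.67 in diabetic and 8.09 ± 0.22 in nondiabetic cells (SD, n = 3 each), and the difference was -0.10 (SE 0.32, 95% interval -0.83 to 0.63). It was -0.42 without diabetic replicate 1 and 0.25 without diabetic replicate 3. With the same endothelial covariate the Mcam difference was -0.0093 and did not pass (limma adjusted p = 0.998).

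Across the markers, 0 of the 6 tested passed the adjusted test, where limma called 1 of 13308 genes (0.00751%), and the adjusted p of each marker was 0.997. At an unadjusted p under 0.05, 0 of the 6 passed, against 4.25% of all tested genes. The groups did not overlap for 0 of the 6, against 7.95% of all tested genes, 5.28% higher and 2.67% lower. Of the 6, 4 had higher and 2 lower means in diabetic cells, against 54% of all tested genes with a higher and 46% with a lower mean. The median difference over all 9 measured markers was 0.09 on the log2 scale, against -0.0037 over the 22180 measured genes, but that median is the value of Pdgfra, which was dim, so it may reflect background. The 95% intervals of the 6 tested markers all held 0 and all stayed between -1 and 1, that is, within a halving and a doubling. The intervals were not adjusted for the number of genes.

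**Figure D2:**
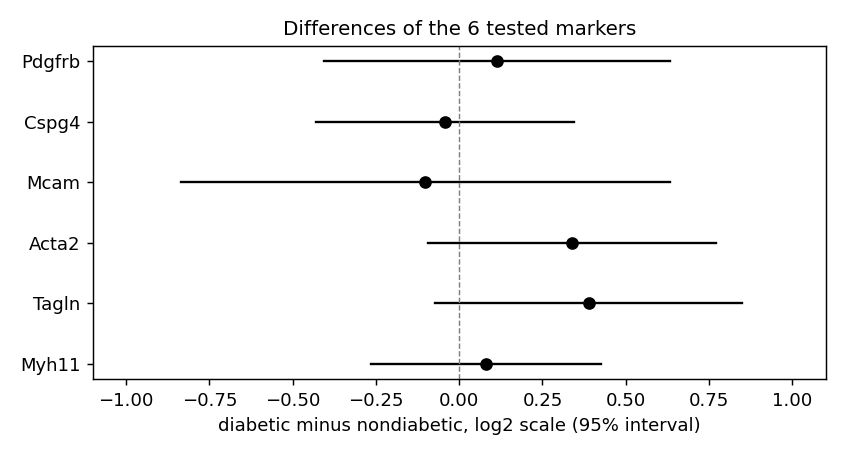
Difference of each tested marker, diabetic minus nondiabetic on the log2 scale, with its 95% interval from limma, for the 6 tested markers. Every interval crosses 0, and the largest differences are 0.39 for Tagln and 0.34 for Acta2.

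Other pericyte genes were split in direction, with Rgs4 and Abcc9 holding the smallest p-values. Of 19 tested genes of the pericyte list, 11 had higher and 8 lower means in diabetic cells, 0 passed, and the median difference was 0.11. Rgs4, a regulator of G protein signaling, had log2 values of 8.98, 8.38 and 7.45 in diabetic arrays against 5.76, 6.10 and 6.52 in nondiabetic arrays. Abcc9, the sulfonylurea receptor subunit of a potassium channel, had 9.29, 8.81 and 8.64 in diabetic arrays against 8.39, 8.11 and 7.97 in nondiabetic arrays. In both genes the lowest diabetic array exceeded the highest nondiabetic one, as it did for 5.28% of all tested genes, and neither passed the adjusted test (limma adjusted p = 0.964 for Rgs4 and 0.997 for Abcc9). Kcnj8, the pore subunit that pairs with Abcc9, had 8.90, 8.59 and 7.56 in diabetic arrays against 8.14, 8.20 and 8.08 in nondiabetic arrays, with overlap. Rgs5, a regulator used as a pericyte marker and the list's member with the highest mean, stood at 9.86 ± 0.29 in diabetic and 10.13 ± 0.86 in nondiabetic cells (SD, n = 3 each), and these overlapped as well.

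Beside these genes, the sinusoidal endothelial list averaged 9.08, 8.58 and 8.53 in diabetic arrays against 8.22, 8.15 and 8.06 in nondiabetic arrays. The myeloid list averaged 7.88, 7.83 and 7.73 in diabetic arrays against 7.42, 7.48 and 7.27 in nondiabetic arrays. Both lists thus lay higher on every diabetic array, as Rgs4 and Abcc9 did, and their part in those values was not tested. Pericyte markers were only in part above the limit. Higd1b and Vtn, used to mark pericytes in other tissues, stayed under it on all 6 arrays, with ranges of 4.51 to 4.86 and 4.77 to 5.06, while Notch3, a receptor that mural cells need, lay between 6.34 and 6.99. Higd1b, Vtn, Notch3 and Kcnj8 were named after their values were seen.

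**Figure D3:**
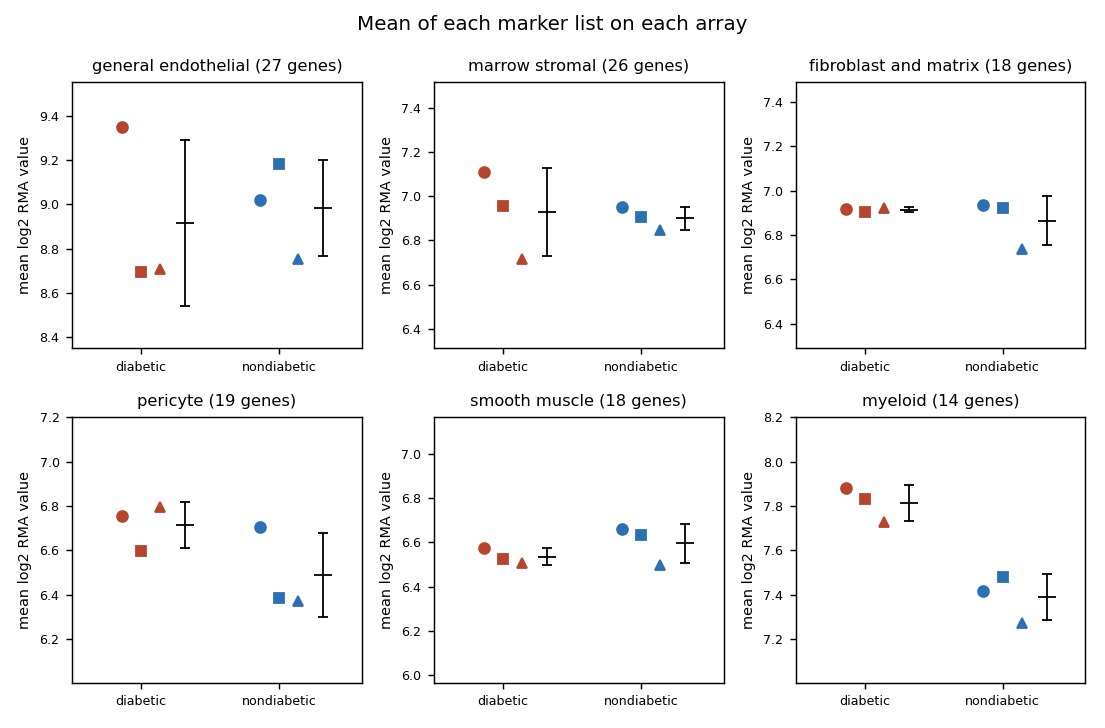
Mean log2 RMA value of the tested genes of 6 marker lists on each array, diabetic left of nondiabetic, with circles, squares and triangles for replicates 1, 2 and 3 and bars for the mean and SD; each panel spans the same height. The myeloid list is apart between the groups, at 7.81 ± 0.08 in diabetic and 7.39 ± 0.10 in nondiabetic arrays, and the other 5 lists overlap.

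Most other genes of the marrow stromal list lay above the limit, unlike Lepr. Of 32 measured genes of the marrow stromal list, 26 (81.2%) had a mean above it and were tested, and 6 were dim. Over all genes 60% lay above it. Of the 26, 14 had higher and 12 lower means in diabetic cells, 0 passed, and the median difference was 0.03. Cxcl12 had log2 values of 9.94, 9.78 and 10.14 in diabetic arrays against 10.30, 10.53 and 9.88 in nondiabetic arrays, with overlap. Cxcl12 was also the brightest gene of the arteriolar endothelial list, and Vcam1 was in the sinusoidal one. The share of the marrow stromal list above the limit therefore does not measure stromal cells alone. Ebf3 and Foxc1, transcription factors that maintain reticular stromal cells, had differences of -0.09 and -0.23, and Ebf3 lay between 5.69 and 6.14 on all 6 arrays. Both were named after their values were seen, and they do not stand for the list, in which 14 of 26 tested genes had higher means. Vcam1, an adhesion molecule of stromal and sinusoidal cells, had 9.33, 8.37 and 8.03 in diabetic arrays against 7.61, 7.58 and 7.74 in nondiabetic arrays. Prrx2, a homeobox gene of mesenchyme, had a mean of 5.61 ± 0.17 in diabetic and 6.00 ± 0.15 in nondiabetic cells (SD, n = 3 each). The groups lay apart for Vcam1, with higher diabetic values, and for Prrx2, with lower ones, as they did in those directions for 5.28% and 2.67% of all tested genes. Neither gene passed the adjusted test (limma adjusted p = 0.997 each). Of the 26 tested genes of the list, the groups lay apart for 3 with higher and 1 with lower diabetic values.

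Some genes used to define fibroblasts and bone-forming cells were dim. The limit was passed by 72% of the measured fibroblast and matrix genes and 52.9% of the osteoblast genes, against 60% of all genes. Decorin (Dcn) and lumican (Lum), proteoglycans that fibroblasts secrete, lay between 3.72 and 4.35 and between 3.26 and 3.77 over the 6 arrays. Sp7 and Ibsp, a transcription factor and a matrix protein of osteoblasts, lay between 4.60 and 4.90 and between 3.79 and 4.38. Col1a1, the main collagen of bone and connective tissue, ran close to the limit, at 4.98, 5.35 and 5.29 in diabetic arrays against 5.32, 5.10 and 5.02 in nondiabetic arrays. These 5 genes were named after their values were seen. Of the 25 measured fibroblast and matrix genes 18 lay above the limit and were tested, with 11 higher and 7 lower. Among them vimentin (Vim), a filament protein that endothelium also makes, stood at 10.58 ± 0.04 in diabetic and 10.57 ± 0.13 in nondiabetic cells (SD, n = 3 each). The groups lay apart for Col6a3, a collagen VI chain, with means of 6.30 ± 0.14 in diabetic and 5.50 ± 0.16 in nondiabetic cells (SD, n = 3 each). They lay apart in that direction for 5.28% of all tested genes. Of the 18 tested genes, the groups lay apart for 1 with higher and 1 with lower diabetic values, the latter against 2.67% of all tested genes. Bgn, which had the smallest p-value of the list after Col6a3, differed by 0.56 (SE 0.26), with overlap. Of the 17 measured osteoblast genes 9 lay above the limit and were tested, with 2 higher and 7 lower. Alkaline phosphatase (Alpl), the osteoblast list's member with the highest mean, stood at 8.15 ± 0.53 in diabetic and 8.19 ± 0.25 in nondiabetic cells. In neither list did a gene pass (limma adjusted p = 0.997 for Col6a3), and the median differences were 0.03 and -0.04.

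Fat cell genes gave a mixed account beside the dim Adipoq. Of 18 measured adipocyte genes 12 were tested, with 7 higher and 5 lower, 0 passed, and the median difference was 0.02. Fabp4, a fatty acid binding protein that endothelial cells also make, was the brightest, at 12.25 ± 0.19 in diabetic and 12.15 ± 0.09 in nondiabetic cells (SD, n = 3 each). Leptin (Lep) and the lipid droplet gene Cidec, both of mature fat cells and named after their values were seen, stayed under the limit on all 6 arrays, between 4.12 and 4.81 and between 4.20 and 4.75. Lpl, lipoprotein lipase, spread widely within the diabetic group, at 8.81, 7.86 and 6.18 in diabetic arrays against 6.97, 7.46 and 6.94 in nondiabetic arrays. Pck1, the gene of the adipocyte list with the smallest p-value, differed by -0.16 (SE 0.15). The groups lay apart for Pck1, as they did in that direction for 2.67% of all tested genes. At an unadjusted limma p under 0.05, the pericyte list held 2 higher and 0 lower genes, the marrow stromal list 1 and 1, the fibroblast and matrix list 1 and 0, and the smooth muscle list 0 and 1, against 3.19% of all tested genes higher and 1.07% lower. The lists of osteoblast, adipocyte, serum response factor and partner genes held 0 in either direction.

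**Figure D4:**
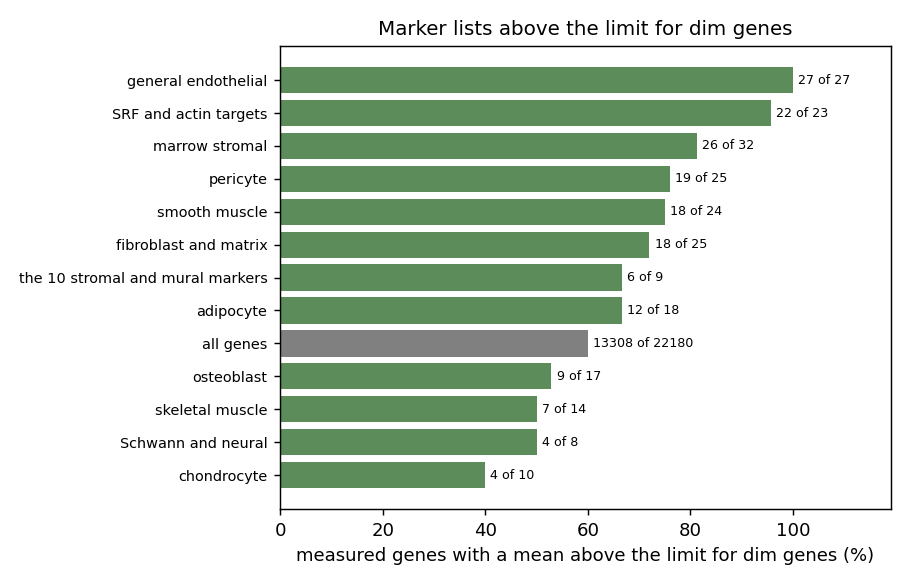
Percent of the measured genes of each list whose mean over the 6 arrays lay above the limit of 5.07, with the counts beside the bars; the grey bar is all genes. The general endothelial list stands at 27 of 27, the 10 markers at 6 of 9 and the chondrocyte list at 4 of 10, with 60% over all genes.

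The ligands and partners of the marker receptors were read from the side of the endothelium. Of 18 tested genes of this list 9 had higher and 9 lower means in diabetic cells, 0 passed, and the median difference was 0.03. Pdgfb, by which endothelium recruits pericytes, had log2 values of 7.98, 7.43 and 6.70 in diabetic arrays against 7.34, 7.74 and 7.46 in nondiabetic arrays. Pdgfd, another ligand of the Pdgfrb product, had 8.21, 7.61 and 7.01 in diabetic arrays against 7.41, 8.14 and 7.81 in nondiabetic arrays. In both genes diabetic replicate 1 was the highest and diabetic replicate 3 the lowest array, as in Mcam, and the groups overlapped. Pdgfb and Pdgfd were named after their values were seen.

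The adiponectin receptors Adipor1 and Adipor2 differed by -0.02 and -0.10, and Cdh13, or T-cadherin, which binds adiponectin on endothelium, by 0.07. Below the leptin receptor, the kinase gene Jak2 differed by 0.05, Stat3, the factor it activates, by 0.15, and Socs3, its feedback inhibitor, by -0.11. The Runx partner Cbfb differed by -0.00086. The 2 genes of this list with the smallest p-values were Ptpn1, a phosphatase that damps leptin and insulin signaling, with a difference of 0.25 (SE 0.17), and Runx3, a relative of Runx2, with 0.31 (SE 0.21). All these genes overlapped between the groups, and apart from Jak2, Ptpn1 and Runx3 they were named after their values were seen.

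The genes whose log2 values followed each marker most closely over the 6 arrays are given as a description, by Pearson's r among 11891 tested genes. The points share their arrays, and 6 arrays allow high values for many genes. Mcam was followed by Rptor (0.998), Plxnd1, a semaphorin receptor of endothelium (0.997), and Adamts1 (0.996), and 326 genes exceeded 0.9. For Acta2 these were Cox6b2 (0.992), Mosmo (0.986) and Tcaim (0.981), with 52 genes over 0.9, and for Tagln they were Cdk5rap3, Rpsa and Gmeb1, with 132. For Myh11 they were Mrpl19, Ikzf3 and Ttc32, with 69 genes over 0.9. For Pdgfrb they were Cep170, Rdh13 and Ranbp2, with 216, and for Cspg4 Nlrp12, Mtus2 and Gucy2d, with 157. Among the dim markers, the closest were Kctd2 for Lepr, Slc22a23 for Pdgfra and Zbtb49 for Adipoq. No marker list held any of these closest genes.

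**Figure D5:**
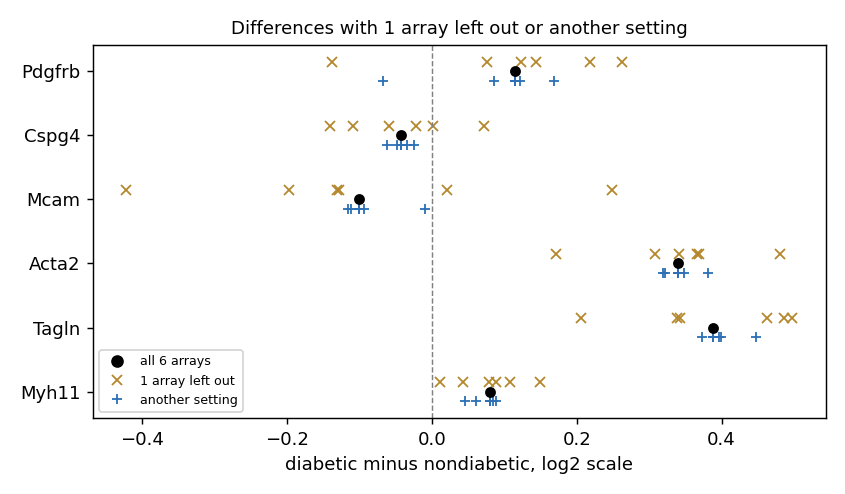
Differences of the 6 tested markers, diabetic minus nondiabetic on the log2 scale, from all 6 arrays (black), with 1 array left out (crosses) and under the other settings (plus signs). Acta2, Tagln and Myh11 stay above 0 in all of them, and Pdgfrb, Cspg4 and Mcam fall on both sides of 0. Filters, probe set rules, variance models and the replicate block could not move a difference, so their plus signs repeat the black value.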

How the data were processed

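The deposited values are log2 RMA values made by the authors, per the submitters' processing notes. This method removes background, gives the arrays 1 shared distribution and combines the probes of a probe set; the software used for it was not given in the sources used here. The labels' protocols name the Ovation Pico WTA System V2 for amplification and biotin as the label. The table held 41345 probe sets, of which 23521 name 1 gene, 1814 several and 16010 none in the platform annotation supplied with the data. Each gene took its brightest probe set by the mean over the 6 arrays, and genes with a mean under the 40th percentile were left out, 8872 of 22180. Groups were compared over all 13308 remaining genes with limma 3.58.1 in R 4.3.3 (lmFit and eBayes, no covariate), with Benjamini-Hochberg adjustment and a threshold of 0.05, and the procedure was tested on simulated data. Differences are diabetic minus nondiabetic. Lists are described by counts and medians only, with the 10 markers left out of every other list. The members and lists were chosen with earlier results of these data known. Genes outside the 10 were named by a rule, the 2 tested members of a list with the smallest p and the one with the highest mean. For likeness they were the 3 genes with the highest r, passing over predicted genes and small RNAs. Not all genes that the rule picked are named, and genes named outside it are pointed out. The alternatives were other filters, probe set rules, normalizations and variance models, array weights, a replicate block, an endothelial covariate and leaving out each array. Promoter letters came from RefSeq, build GRCm38.p6.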

Additional observations from a re-analysis of the deposited data

How the results depend on the processing

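Under all 16 alternatives, 0 of the tested markers passed the adjusted test, and the differences of Acta2, Tagln and Myh11 stayed positive, between 0.17 and 0.48, 0.21 and 0.50, and 0.01 and 0.15. Each marker had 1 probe set, so filters, probe set rules, variance models and the replicate block could not change these differences. Only normalizations, array weights, the endothelial covariate and leaving out an array could move them. Directions were not stable for the other tested markers, and the cause was not tested. Pdgfrb differed by -0.067 with array weights and by -0.14 to 0.26 with 1 array left out, Cspg4 by -0.14 to 0.072 and Mcam by -0.42 to 0.25 with 1 array left out. With the filter at the 60th percentile Pdgfrb was left out as dim. The median difference over the 9 measured markers was -0.0025 with array weights and 0.043 to 0.15 with 1 array left out, and it includes 3 dim markers. The count of genes called over the whole table, 1, was 0 when genes under the 60th percentile were left out, where 8872 genes were tested, and 0 to 1 with 1 array left out. Same-numbered arrays of the groups did not deviate together (correlations of -0.036, -0.064 and 0.016 across genes). Correlations this small cannot show whether the numbers pair the samples, and the labels do not say. The replicate block cannot change a difference here, so that of Tagln stayed 0.39. With the block, 0 markers and 1 gene were called, and 1 of 3 arrays correlated best with its own number. No alternative was added after the data were seen. The 3 dim markers could be fitted only with no filter, and how far their values lie above background is not known.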

Other observations

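Markers of cells that a marrow sort should hold little of gave a measure of how often a list passes the limit of 5.07. Of 14 measured skeletal muscle genes 7 lay above it, of 8 Schwann and neural genes 4, and of 10 chondrocyte genes 4, against 60% of all genes. The osteoblast list, with 9 of 17, lay near these, and the marrow stromal and pericyte lists, with 26 of 32 and 19 of 25, lay higher, which was not tested. The marrow stromal list shares Cxcl12 and Vcam1 with the endothelial lists. Median differences were 0.07, -0.08 and -0.04 for the muscle, Schwann and chondrocyte lists, and 0 genes of them passed the limma test. At an unadjusted limma p under 0.05 they held 1 higher and 0 lower, against 3.19% and 1.07% of all tested genes.

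Blood cell markers beside the myeloid list were read as well. The lymphoid and plasma list averaged 7.43 ± 0.19 in diabetic and 7.04 ± 0.24 in nondiabetic arrays (SD, n = 3 each), with overlap. The erythroid and megakaryocyte list averaged 8.60 ± 0.30 in diabetic and 8.54 ± 0.19 in nondiabetic arrays. Arteriolar endothelial genes averaged 7.86 ± 0.32 in diabetic and 8.26 ± 0.28 in nondiabetic arrays, with 15 of 15 tested members lower in diabetic cells, 0 passing by limma and 3 lower at an unadjusted p under 0.05, against 46% of all tested genes with a lower mean and 1.07% lower at that p. Their lowest array, at 7.61, was diabetic replicate 3, as for Mcam, Pdgfb and Pdgfd.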
